A study of Homo sapiens with 6 samples.

Results

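The genes described here carry the names of the translation machinery: initiation factors (EIF), elongation factors (EEF), termination factors (ETF1, GSPT1, GSPT2), cytoplasmic poly(A)-binding proteins (PABPC) and the aminoacyl-tRNA synthetases (a letter followed by ARS, ARS2 for most mitochondrial forms, and EPRS). They were taken by name alone, which gave 89 genes with 102 regions out of 9588 gene names and 14686 regions in the table. The name rule itself uses no measured value, but it was chosen with earlier results of these data known. Where a gene has several regions, as 12 of the 89 do, the region with the highest mean signal stands for it. The Argonaute genes EIF2C2, EIF2C3 and EIF2C4 match the name pattern, although their products act in small RNA silencing, and they are kept apart below.

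The samples are day 6 endoderm (G1, G1/S and S, 1 library each) and undifferentiated hESCs (the same phases, 1 library each), in which the 3' ends of poly(A) RNA were sequenced. All come from H9, an established line of human embryonic stem cells, at passage 51. Endoderm cells had 6 days of activin A at 100 ng/ml in RPMI, with serum raised in daily steps of 0%, 0.2% and then 2%. A medium change on day 3 is listed for them. The hESCs grew on matrigel in medium conditioned by mouse embryonic fibroblasts. Medium and serum therefore differ along with cell type and cannot be told apart from it. Endoderm was taken at 0, 3 and 6 h and hESCs at 0, 2 and 3 h for G1, G1/S and S, and how cells were brought into phase is not given in the sources used here. With 1 library for each type and phase, the 3 libraries of a type differ in phase, and the p-values reflect no more than the scatter of these 6 libraries.

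Protein synthesis begins when the eIF4F complex binds the cap of an mRNA and the small ribosomal subunit, carrying eIF3 and the initiator tRNA bound to eIF2, scans to a start codon. Elongation factors then deliver charged tRNAs and move the ribosome, release factors end the chain, and the tRNA synthetases couple each amino acid to its tRNA. Stress kinases phosphorylate eIF2, which blocks its recycling by eIF2B, lowers general initiation and favours translation of the transcription factor ATF4. ATF4 is known to act on genes of amino acid transport, amino acid synthesis and cytosolic tRNA charging through a DNA element shared with C/EBP factors, a programme called the integrated stress response.

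Signal here is the number of reads of a region divided by the size factor of its library. The libraries hold 5389666, 3205025 and 2502792 reads in endoderm, and 4972977, 4194957 and 6203079 reads in hESCs, each in the order G1, G1/S and S that is used throughout. A single read is worth between 0.591 and 1.71 units of signal. The 89 genes have between 63 and 386352 reads over the 6 libraries (median 912), against a median of 259 for all regions, and all 89 passed the filter on low values. The labels of cell type were checked on markers. All 9 measured markers of definitive endoderm were called higher in endoderm, with a summed signal of 9286 to 21817 in endoderm and 505 to 666 in hESCs. Of 9 measured pluripotency markers 3 were called lower (SOX2, UTF1 and DNMT3B) and 1 higher (SALL4). POU5F1 was not called, at -0.01 on the log2 scale, and NANOG was not among those measured. SOX17, which specifies endoderm, had 1.04 to 4.54 units in hESCs, and none of the 9 pluripotency markers was at 0 in endoderm. Markers of other fates moved as well, with 2 of 4 mesoderm, 3 of 4 neuroectoderm, 2 of 4 trophoblast and 1 of 4 stromal markers called higher, and 2 trophoblast and 2 stromal markers called lower. Their summed signals were 558 to 1577 in endoderm and 107 to 131 in hESCs for mesoderm, 5420.1 to 11844 and 5961 to 9044 for neuroectoderm, 327 to 649 and 294 to 415 for trophoblast, and 5127 to 7502 and 7785 to 10092 for stroma. The part of these cells in the results below was not tested, and in such bulk samples fewer cells of a type and less RNA per cell cannot be told apart.

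In endoderm, 4 cytosolic tRNA synthetases (WARS, NARS, GARS and YARS) and the start codon factor EIF1 were higher than in hESCs, and the cap-binding protein EIF4E1B was lower. These 6 genes of 89 passed the test, which was limma on log2(signal + 1) over 14657 regions with a term for phase, at an adjusted p under 0.05. The 5 higher genes are 5 of 89, while 6.90% of all regions tested were called higher. The single lower gene compares with 7.60% of regions called lower. Both shares apply to the calls of every role below. The count of 5 is 1 without the intensity trend, 2 without either G1/S library, 3 without either S library, 12 with GC correction, 13 with DESeq2 and 16 without either G1 library. The count of 1 is 0 to 3 over these settings. The set's median difference was 0.19 on the log2 scale against 0.02 over all regions, and 51 of 89 differences were positive. At an unadjusted p under 0.05, 20 genes were higher (16.2% of all regions were) and 13 lower (18.0% of all regions). Without a test, 13 genes had every endoderm library above every hESC library (14.7% of all regions did) and 11 had every one below (18.7% of all regions).

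**Figure D1:**
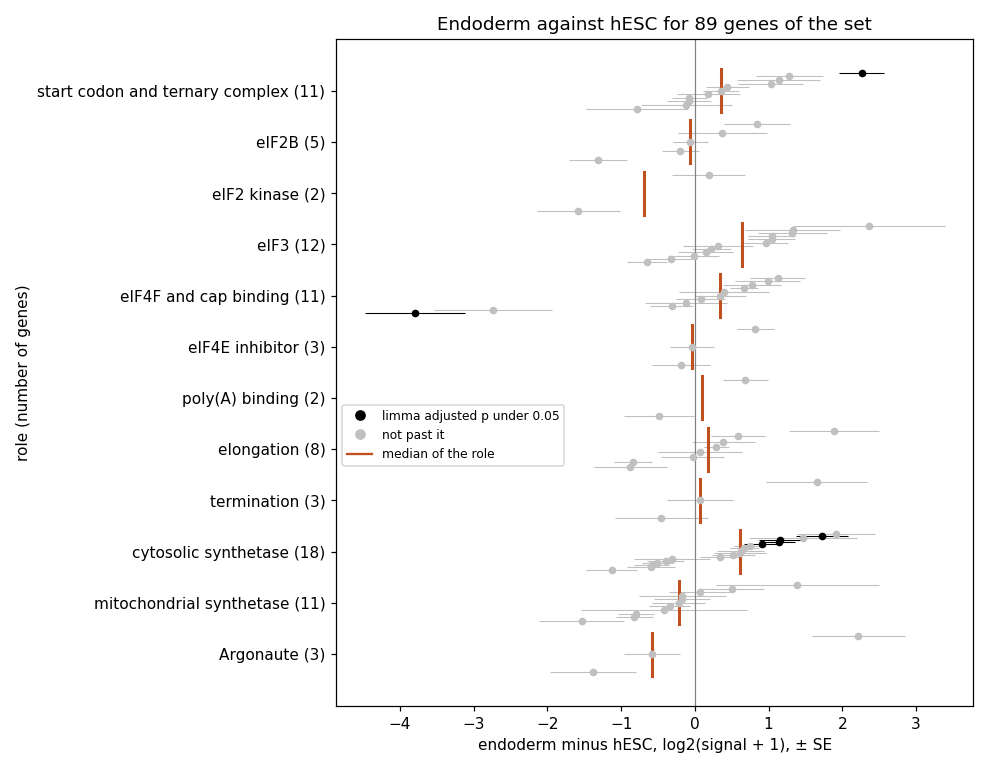
Difference of endoderm from hESC on the log2(signal + 1) scale (x axis, with standard error) for each of the 89 genes, arranged by role (y axis, number of genes in brackets). Black points passed the limma test at an adjusted p under 0.05, grey points did not, and the orange bars are the medians of the roles, which lie at 0.62 for cytosolic synthetases, 0.64 for eIF3 and -0.22 for mitochondrial synthetases.

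The cytosolic synthetases held most of the calls. Of 18 genes, 4 were called higher and 0 lower, 12 differences were positive, and the median was 0.62. Of all regions tested, 6.90% were called higher and 7.60% lower, and their median was 0.02. Library by library the class ran both ways: 5 of the 18 (WARS, NARS, YARS, MARS and SARS) had every endoderm value above every hESC value, and QARS and RARS had every one below. Over all regions 14.7% lay wholly above and 18.7% wholly below. The count of 4 falls to 0 without either G1/S library and to 1 without either S library, and is 6 without either G1 library.

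Promoter sequences are shown for the synthetases chosen because their window holds the ATF4 and C/EBP element. That the genes shown share it follows from this choice. RefSeq promoters (build GRCh38.p14, 250 bases before to 50 bases after an annotated start) were at hand for 14 of the 18 cytosolic synthetases, and the element was searched as TGATGNAA on both strands. It lies in the window of 7 of these 14 genes, in 8 of the 70 genes of the whole set that have a window (11.4%), in 0 of 9 mitochondrial synthetases and in 4.46% of the 27305 genes in the promoter table. EIF4E3, a cap-binding protein, is the eighth. Each stretch below is written 5' to 3' on the gene's strand in lower case with the matching bases in capitals. Written in capitals as TTGCATCA or TTTCATCA, the match is on the opposite strand, and in NARS1 it is on the gene's own strand.
AARS1: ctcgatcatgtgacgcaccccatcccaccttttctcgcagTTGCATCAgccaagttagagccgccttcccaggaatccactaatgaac
CARS1: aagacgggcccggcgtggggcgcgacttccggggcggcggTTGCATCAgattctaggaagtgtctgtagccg
GARS1: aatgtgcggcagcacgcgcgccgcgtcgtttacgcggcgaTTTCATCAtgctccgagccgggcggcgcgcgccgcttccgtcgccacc
IARS1: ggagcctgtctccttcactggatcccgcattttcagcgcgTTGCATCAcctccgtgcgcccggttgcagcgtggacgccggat
MARS1: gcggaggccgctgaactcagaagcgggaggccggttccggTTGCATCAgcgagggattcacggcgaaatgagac
NARS1: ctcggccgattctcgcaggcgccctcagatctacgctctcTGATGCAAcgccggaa
TARS1: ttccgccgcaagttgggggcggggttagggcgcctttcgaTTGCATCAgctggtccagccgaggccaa
The stretches lie at chr16:70289646-70289733 (-) for AARS1 (AARS in the table, whose older names lack the 1), chr11:3057394-3057465 (-) for CARS1, chr7:30594805-30594892 (+) for GARS1, chr9:92293668-92293750 (-) for IARS1, chr12:57488024-57488097 (+) for MARS1, chr18:57621807-57621862 (-) for NARS1 and chr5:33440927-33440994 (+) for TARS1. The first matching base is at -2 from the annotated start in CARS1, -4 in MARS1, -13 in IARS1, -33 in GARS1 and -187 in AARS1, and at 2 in TARS1 and 14 in NARS1. A match is a description of these letters and shows no binding.

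Genes with and without the element were both found among the calls. The 7 synthetases with it had a median difference of 0.75, with 2 called higher (NARS and GARS) and 5 positive. The 7 without it had a median of 0.34, with 1 called higher (WARS) and 4 positive. The 4 with no window here had 1 call, YARS. AARS carries the element and had the lowest difference of all 18. Of all regions tested, 6.90% were called higher, with a median of 0.02. Whether the element or ATF4 has a part in these differences was not tested.

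WARS, which charges tryptophan tRNA, had 4598, 7432 and 5991 units of signal in endoderm, against 2317, 2604 and 3142 in hESCs. All 3 endoderm libraries lay above all 3 hESC libraries. The means were 6007 ± 1417 in endoderm and 2687 ± 419 in hESCs (SD, n = 3 each), a ratio of 2.24, and on the log2 scale endoderm was higher by 1.14 ± 0.22 (SE, limma adjusted p = 0.0178). The region lies at chr14:99870522-99871132 (-) in the deposited coordinates, for which the submitters' notes name hg18 and NCBI36. The call is lost without either G1/S library, where the difference is 0.96, and without the intensity trend (limma adjusted p = 0.0921).

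NARS, the asparagine enzyme, had 407, 203 and 527 units in endoderm, against 157, 87.5 and 86.2 in hESCs. No library of one type overlapped those of the other. Its mean was 379 ± 164 in endoderm and 110.1 ± 40.3 in hESCs (SD, n = 3 each), and endoderm was higher by 1.72 ± 0.35 on the log2 scale (SE, limma adjusted p = 0.0218). The NARS region is at chr18:53439928-53440074 (-). Without the intensity trend the NARS call is lost (limma adjusted p = 0.0644).

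GARS, which serves glycine in both the cytosol and the mitochondrion, had 669, 349 and 1167 units in endoderm, against 422, 163 and 352 in hESCs. The groups overlapped, since endoderm G1/S lay below hESC G1 and hESC S, although endoderm was higher within each phase. The log2 difference was 1.16 ± 0.29 (SE, limma adjusted p = 0.0385) with the region at chr7:30639826-30640141 (+). By phase, endoderm exceeded hESC by 0.66 (G1), 1.09 (G1/S) and 1.73 (S) on that scale. The call depends on the phase term, without which the adjusted p is 0.137 in limma, and over its alternatives the adjusted p ranged from 0.00684 to 0.162.

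YARS, the tyrosine enzyme, had 1114, 1522 and 1635 units in endoderm, against 584, 1042 and 693 in hESCs. Every endoderm library lay above every hESC library, the narrowest gap being between endoderm G1 and hESC G1/S. The log2 difference was 0.90 ± 0.24 (SE, limma adjusted p = 0.0468), for a region at chr1:33013831-33014162 (-). This call stands closest to the threshold and was kept in 9 of 21 alternatives. It is lost with edgeR (adjusted p = 0.0624) and without the phase term in limma (adjusted p = 0.0927). With the mean over both YARS regions it is lost too (log2 difference 0.44, limma adjusted p = 0.303). In limma it is also lost with TMM scaling of the libraries (adjusted p = 0.0569), with quantile normalisation (0.0629) and without the intensity trend (0.144). NARS, GARS and YARS each lose their call when any G1/S or S library is left out, and hold it when a G1 library is.

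**Figure D2:**
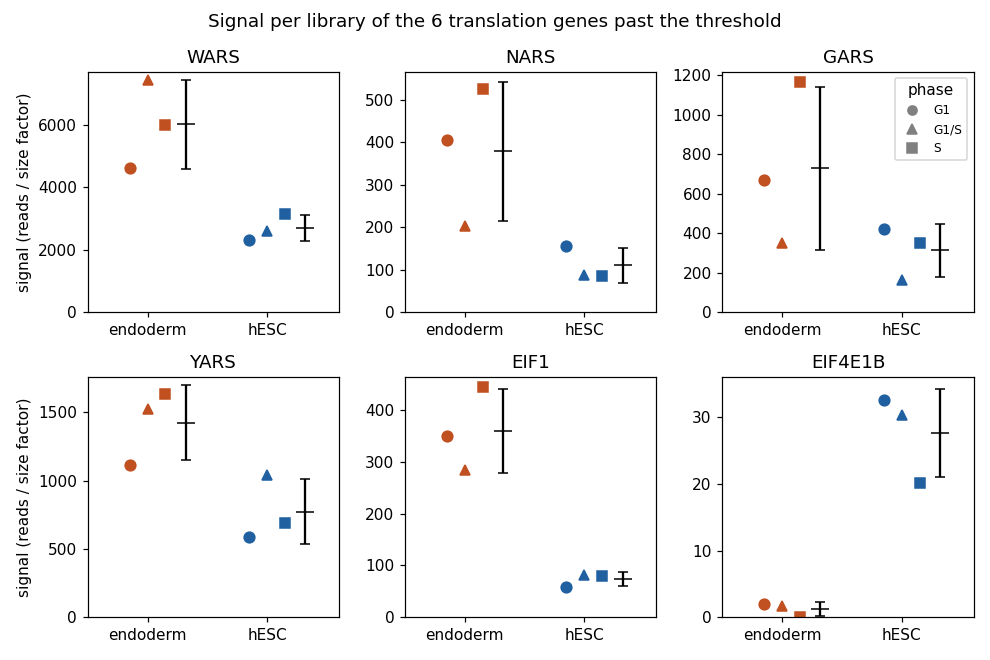
Signal (reads divided by the size factor, y axis from 0) in each library for the 6 genes past the threshold, endoderm left of hESC, with a circle for G1, a triangle for G1/S and a square for S, and the black mark and bar giving mean ± SD of the 3 libraries. EIF1, WARS, NARS and YARS separate fully, GARS overlaps through its G1/S library at 349, and EIF4E1B lies at or below 2.07 in endoderm.

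SARS, which charges serine tRNA and is second in signal among the cytosolic synthetases after WARS, had 3276, 4901 and 4762 units in endoderm, against 2339, 2722 and 2965 in hESCs. The groups did not overlap, and the log2 difference of 0.67 ± 0.20 (SE) missed the threshold (limma adjusted p = 0.0650). A further SARS region on chr1:109558036-109558277 (+), 23922 bases to the 5' side, had 293, 143 and 662 units in endoderm, against 89.3, 37.5 and 28.4 in hESCs. That region was called higher, at 2.70 ± 0.55 (SE, limma adjusted p = 0.0215). It held 8.20%, 2.84% and 12.2% of the signal of both SARS regions in endoderm, and 3.68%, 1.36% and 0.947% in hESCs.

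Of the remaining synthetases with the element, named here for it, TARS (threonine) had 895, 797 and 1703 units in endoderm, against 805, 151 and 185 in hESCs. The G1 libraries of both types were close, and the types parted in G1/S and S, with log2 differences of 0.15 (G1), 2.39 (G1/S) and 3.19 (S). The overall difference was 1.91 ± 0.53 (SE, limma adjusted p = 0.0506), just outside the threshold.

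MARS (methionine) had 1984, 2085 and 2533 units in endoderm, against 983, 1434 and 1568 in hESCs, with no overlap. Its difference was 0.75 ± 0.22 (SE, limma adjusted p = 0.0600). CARS (cysteine) and IARS (isoleucine) were at 0.52 ± 0.29 and -0.31 ± 0.52. A weaker IARS region was at 0.95 ± 0.48 and not called, so the sign for IARS depends on the region used. AARS, the alanine enzyme, had 267, 88.2 and 188 units in endoderm, against 564, 116 and 716 in hESCs, with a difference of -1.13 ± 0.35 (SE, limma adjusted p = 0.0676). The hESC G1 and S values of AARS stood above all endoderm libraries, while hESC G1/S did not.

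The other 8 cytosolic synthetases were not called and lay between -0.59 and 1.47. QARS, the glutamine enzyme, had 2351, 2266 and 1806 units in endoderm, against 2985, 3056 and 3066 in hESCs, below in every library. Its difference of -0.51 ± 0.21 (SE) did not pass (limma adjusted p = 0.134). LARS, at 1.47 ± 0.73 (SE), rests on few reads, with 20.7, 4.99 and 27.4 units in endoderm and 15.9, 2.08 and 2.36 in hESCs. QARS, RARS and LARS were named after their values were seen.

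Genes of the integrated stress response were examined beside the synthetases. Of 28 measured genes of the list, 14 were called higher in endoderm and 0 lower, 25 differences were positive, and the median was 1.17. The corresponding figures over all regions are 6.90% called higher and a median of 0.02. The summed signal of the list was 31421 to 55188 in endoderm and 17624 to 20427 in hESCs. The count of 14 is 2 without hESC G1/S, 3 without endoderm G1/S and 8 without the intensity trend.

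Of 5 measured amino acid transporter genes of the list, 3 were called higher. SLC7A5, the light chain of the large neutral amino acid transporter, had 6434, 12499 and 8989.7 units in endoderm, against 1498, 3233 and 2212 in hESCs (2.03 ± 0.19, SE, limma adjusted p = 0.00279). SLC3A2, its heavy chain partner, had 4354, 4931 and 6304 units in endoderm, against 919, 1542 and 1656 in hESCs (1.95 ± 0.22, limma adjusted p = 0.00393). Neither gene's types overlapped. The cationic amino acid transporter SLC7A1 was called at 2.03. SLC38A2 (0.58 ± 0.27, SE, limma adjusted p = 0.177) and the cystine transporter SLC7A11 (-0.10 ± 0.89, limma adjusted p = 0.947) were not called.

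Some regulators of the response were called higher and others were not. PPP1R15A, the phosphatase subunit that reverses eIF2 phosphorylation, had 1047, 4512 and 3143 units in endoderm, against 354, 893 and 479 in hESCs (2.20 ± 0.28, SE, limma adjusted p = 0.00506). The transcription factors DDIT3 (2.04), ATF3 (1.90), ATF5 (1.54) and CEBPG (2.14) and the pseudokinase TRIB3 (2.02) passed too. The transcription factor CEBPB (1.10 ± 0.36, SE, limma adjusted p = 0.0793) and the regulator NUPR1 (-0.44 ± 0.39, limma adjusted p = 0.451) did not pass. Calls were also made for asparagine synthetase ASNS (1.90), the cystathionine lyase CTH (1.90), SESN2 (1.19), STC2 (1.55) and the proline enzyme PYCR1 (1.06). PSAT1 (1.14), PSPH (0.86), SHMT2 (0.51), MTHFD2 (1.28), CBS (0.98), GPT2 (0.82), ALDH18A1 (0.09) and CHAC1 (0.78) were not called. Their limma adjusted p ranged from 0.0639 to 0.915.

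ATF4 itself was not called. Its signal was 143, 34.9 and 35.9 in endoderm, against 94.6, 8.33 and 154 in hESCs, with a difference of 0.16 ± 0.69 (SE, limma adjusted p = 0.892), and the widest change was between libraries of one type. PHGDH, the entry enzyme of serine synthesis, had 1089, 968 and 1441 units in endoderm, against 3514, 713 and 3817 in hESCs (-0.88 ± 0.40, limma adjusted p = 0.167).

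**Figure D3:**
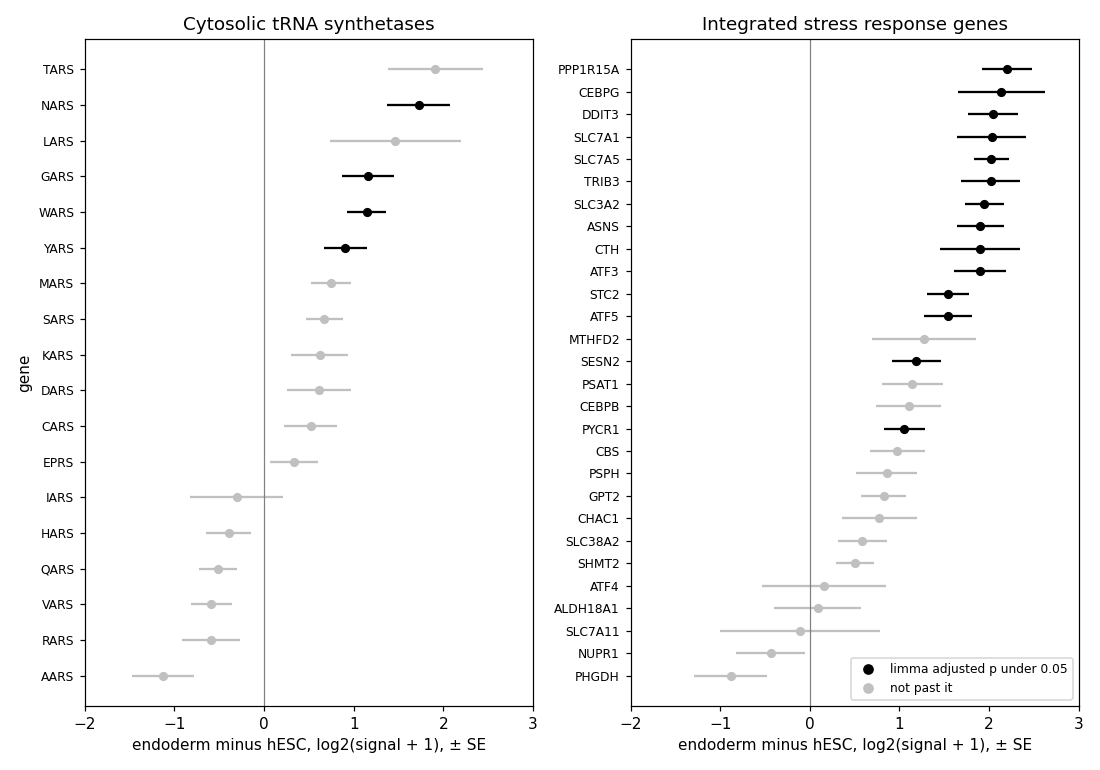
Difference of endoderm from hESC on the log2(signal + 1) scale with standard error (x axis) for the 18 cytosolic tRNA synthetases (left) and the 28 measured integrated stress response genes (right), one gene per line, black where the limma adjusted p was under 0.05. The synthetases spread from -1.13 for AARS to 1.91 for TARS with 4 called, and the stress response genes from -0.88 for PHGDH to 2.20 for PPP1R15A with 14 called.

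Mitochondrial synthetases, which charge tRNAs inside the organelle, showed no call. Of 11 genes, 0 passed in either direction and 8 differences were negative, with a median of -0.22. Calls over all regions were 6.90% higher and 7.60% lower, with a median of 0.02. CARS2, VARS2, AARS2 and TARS2 had all endoderm libraries below all hESC libraries, and 0 had all above. Over all regions 18.7% lay wholly below and 14.7% wholly above. CARS2, with the most signal of the class, had 720.1, 863 and 556 units in endoderm, against 1152, 1222 and 1287 in hESCs (-0.80 ± 0.25, SE, limma adjusted p = 0.0689). VARS2 had 269, 344 and 231 units in endoderm, against 448, 566 and 466 in hESCs (-0.82 ± 0.25, limma adjusted p = 0.0663). AARS2 and TARS2 were at -0.34 ± 0.28 and -1.54 ± 0.58, and the other 7 lay between -0.43 and 1.39. Another 9 genes of mitochondrial translation gave 0 calls with a median of -0.14. TUFM, the mitochondrial elongation factor Tu, was at -0.58 ± 0.20 (limma adjusted p = 0.0883).

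Among the start codon and ternary complex factors, EIF1 stood out. EIF1, which keeps the scanning ribosome from stopping at poor start codons, had 349, 283 and 443 units in endoderm, against 58.3, 82.3 and 79.7 in hESCs. Every endoderm library exceeded every hESC library. The means were 358 ± 80.7 in endoderm and 73.4 ± 13.2 in hESCs (SD, n = 3 each), a ratio of 4.88, and endoderm was higher by 2.26 ± 0.30 on the log2 scale (SE, limma adjusted p = 0.00604). The call was kept under all 21 alternatives, with differences of 2.11 to 2.51, although several of them share the same difference by design. The region is at chr17:37101159-37101433 (+), and 7 pseudogenes bear the EIF1 name, so reads of near-identical copies could be shared.

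EIF1B, a close paralog of EIF1, had 44.9, 21.6 and 49.6 units in endoderm, against 16.6, 14.6 and 12.4 in hESCs, again without overlap. Its difference of 1.28 ± 0.45 (SE) did not pass (limma adjusted p = 0.0965). EIF1 made up 88.6%, 92.9% and 89.9% of the summed signal of the pair in endoderm, and 77.8%, 84.9% and 86.5% in hESCs.

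The remaining 9 genes of the class had no call. EIF6, which keeps large subunits from joining early, had 2508, 5059 and 4091 units in endoderm, against 2869.6, 3576 and 2433 in hESCs (0.35 ± 0.24, SE, limma adjusted p = 0.337). EIF2S2, the beta subunit of eIF2, had 1061, 2421 and 1888 units in endoderm, against 1922, 705 and 337 in hESCs (1.13 ± 0.57, limma adjusted p = 0.201). The phase order of EIF2S2 ran opposite ways, with hESC G1 the highest hESC library and endoderm G1 the lowest endoderm one. EIF1AX and EIF1AD were at 0.18 ± 0.43 and 0.44 ± 0.29, and the other genes lay between -0.79 (EIF2A) and 1.03 (EIF2S1).

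The exchange factor eIF2B and the eIF2 kinases gave no call either, where 6.90% of all regions were called higher and 7.60% lower. EIF2B4 had 804, 802 and 536 units in endoderm, against 764, 803 and 848 in hESCs (-0.20 ± 0.26, SE). EIF2B5, the catalytic subunit, had 487, 614 and 423 units in endoderm, against 494, 593 and 492 in hESCs (-0.06 ± 0.24). Both genes overlapped widely between types. EIF2B3, named after its values were seen, was below hESC in every library at -1.31 ± 0.40 (limma adjusted p = 0.0659).

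Among the eIF2 kinases, EIF2AK1 and EIF2AK4 have a region. EIF2AK4 (GCN2), which senses uncharged tRNA, had 419.8, 403 and 729 units in endoderm, against 1167, 224 and 318 in hESCs (0.19 ± 0.49, SE, limma adjusted p = 0.812). A weaker EIF2AK4 region was below hESC in every library, at -1.02 ± 0.33 (SE, limma adjusted p = 0.0767). The sign for EIF2AK4 thus depends on the region used. EIF2AK1, the haem-regulated kinase, had 53.9, 8.32 and 23.96 units in endoderm, against 60.5, 24.99 and 212 in hESCs (-1.58 ± 0.56, limma adjusted p = 0.0967). In both genes the highest value was a hESC library, G1 for EIF2AK4 and S for EIF2AK1.

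eIF3, the scaffold of 12 measured genes that holds the initiation complex, had 0 calls, a median of 0.64 and 9 positive differences. Of all regions, 6.90% were called higher and 7.60% lower, 14.7% lay wholly above and 18.7% wholly below, and the median was 0.02. EIF3B had 2254, 5515 and 3831 units in endoderm, against 3100.3, 4002 and 2428 in hESCs (0.22 ± 0.26, SE), and EIF3G was at 0.14 ± 0.38. Both overlapped between types. EIF3A, EIF3D and EIF3K were named after their values were seen. EIF3A and EIF3D had every endoderm library above every hESC library and EIF3K every one below, at 0.96 ± 0.30 (limma adjusted p = 0.0681), 1.04 ± 0.32 (0.0660) and -0.65 ± 0.27 (0.139). The highest and least precise difference was that of EIF3F, at 2.36 ± 1.03, on 13.1, 3.33 and 61.6 units in endoderm and 1.51, 4.16 and 1.18 in hESCs.

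Among the genes of eIF4F and cap binding the only call was EIF4E1B, a paralog of the cap-binding protein eIF4E known from oocytes. EIF4E1B had 2.07, 1.66 and 0 units in endoderm, against 32.5, 30.2 and 20.1 in hESCs. In reads this is 3, 1 and 0 in endoderm and 43, 29 and 34 in hESCs. The log2 difference was -3.80 ± 0.68 (SE, limma adjusted p = 0.0150), and with so few endoderm reads its size is set in part by the added 1. The region is at chr5:176005999-176006176 (+). The call is lost without hESC G1/S, without hESC S and without endoderm G1/S.

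EIF4E itself was weakly covered, with 20.02, 4.99 and 13.7 units in endoderm, against 8.32, 3.12 and 20.1 in hESCs (0.40 ± 0.61, SE), and 5 pseudogenes bear its name. EIF4E2 was at 0.34 ± 0.35. EIF4E gave 5.26% to 8.03% of the summed signal of EIF4E and EIF4E2 over the 6 libraries. EIF4ENIF1, an eIF4E-binding transporter, had 4.14, 0 and 1.71 units in endoderm, against 19.7, 15.6 and 11.2 in hESCs. No libraries overlapped, and the difference of -2.74 ± 0.80 did not pass (limma adjusted p = 0.0590). That gene was named after its values were seen.

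EIF4A1, the helicase of eIF4F, had 6114, 12689 and 10128 units in endoderm, against 4349, 7414 and 6172 in hESCs. Endoderm was higher within each phase, by 0.49, 0.78 and 0.71, while endoderm G1 lay below hESC G1/S and S. Its difference was 0.66 ± 0.19 (SE, limma adjusted p = 0.0566). EIF4A2, its paralog, had 155, 79.9 and 94.1 units in endoderm, against 41.6, 40.6 and 64.4 in hESCs, with no overlap (1.13 ± 0.37, limma adjusted p = 0.0825). The paralog EIF4A1 held 97.5% to 99.5% of the summed signal of both, and 13 pseudogenes bear its name.

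The scaffold EIF4G1 had 1929, 5279 and 3773 units in endoderm, against 3476, 4692 and 1996 in hESCs (0.08 ± 0.33, SE), and EIF4G3 was at -0.32 ± 0.29. EIF4EBP1, which sequesters eIF4E when TOR kinase is inactive, had 3826, 8195 and 5873 units in endoderm, against 3386, 3736 and 2640.4 in hESCs. All endoderm libraries lay above all hESC libraries, and the difference of 0.82 ± 0.25 (SE) did not pass (limma adjusted p = 0.0693). EIF4EBP2 and EIF4EBP3 were at -0.19 ± 0.40 and -0.04 ± 0.30.

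The poly(A)-binding genes differed more between libraries than between types. PABPC1 had 1873, 279 and 1224 units in endoderm, against 1813, 186 and 454 in hESCs (0.69 ± 0.31, SE, limma adjusted p = 0.162). PABPC4 had 1912, 2018 and 1831 units in endoderm, against 7473, 1059.9 and 2457 in hESCs (-0.49 ± 0.48, limma adjusted p = 0.496). PABPC1 was lowest in G1/S in both types. PABPC4 was almost level across endoderm and spread over a wide range in hESCs, highest in G1.

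Elongation factors gave no call, where 6.90% of all regions were called higher and 7.60% lower. Much of the signal of the whole set was held by 1 elongation factor. EEF2, which moves the ribosome along the mRNA, had 63139.6, 76962 and 59966 units in endoderm, against 45845, 64648 and 53707 in hESCs, which is 50.2% of the mean signal summed over the 89 genes. Signal counts 3' ends and is not divided by length. The difference of EEF2 was 0.29 ± 0.17 (SE, limma adjusted p = 0.257), and the groups overlapped. EEF1A2, the paralog of EEF1A1 known from muscle and neurons, had 315, 655 and 479 units in endoderm, against 739, 1238 and 621 in hESCs (-0.84 ± 0.26, limma adjusted p = 0.0717).

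EEF1A1, which delivers charged tRNAs and is commonly among the most abundant mRNAs, had only 35.9, 23.3 and 42.8 units in endoderm, against 31.8, 26.03 and 18.9 in hESCs. In the set it is the gene with the most pseudogenes by name, 39, and how the authors' processing treated reads with several matching places is not given in the sources used here. EEF1A1 made up 3.43% to 10.2% of the pair's signal in endoderm and 2.06% to 4.12% in hESCs. Regions carrying the names EEF1G and EEF1B2 lie off the gene's chromosome. The EEF1G region is at chr7:132370020-132370119 (-) while RefSeq places the gene on chromosome 11. The stronger EEF1B2 region is at chrX:24716360-24716457 (-) and the weaker at chr2:206734543-206734655 (+), on the chromosome of the gene. EEF1G and both EEF1B2 regions were not called, at 0.58, -0.03 and -0.69.

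EIF5A, which helps ribosomes past proline stretches, had 229.9, 311 and 972 units in endoderm, against 37.8, 357 and 99.2 in hESCs. The values crossed in G1/S, and the difference of 1.88 ± 0.61 (SE) did not pass (limma adjusted p = 0.0766). The release factors were weakly covered. GSPT1, the GTPase of termination, had 50.4, 11.6 and 49.6 units in endoderm, against 83.2, 11.5 and 25.99 in hESCs (0.07 ± 0.45, SE). GSPT2, its paralog, had 16.6, 13.3 and 47.9 units in endoderm, against 8.32, 8.33 and 3.54 in hESCs, with no overlap (1.65 ± 0.69, limma adjusted p = 0.136).

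Argonautes, which are no translation factors, gave no call. EIF2C2, the slicing Argonaute, had 49.02, 38.3 and 145 units in endoderm, against 27.99, 10.4 and 7.68 in hESCs (2.22 ± 0.63, SE, limma adjusted p = 0.0553). EIF2C3 was at -0.58 ± 0.38 and EIF2C4 at -1.38 ± 0.59. EIF2C2 lay wholly above and EIF2C4 wholly below hESCs. Without these 3 genes the set still had 5 genes called higher and 1 lower, with a median of 0.20.

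Other genes of translation were counted from a list. Of 21 measured factors that do not match the naming rule, 5 were called higher and 0 lower, with a median of 0.38 and 17 positive differences. Over all regions 6.90% were called higher and 7.60% lower, with a median of 0.02, and the same figures stand beside the TOR list that follows. The 5 called genes are the cap and oligopyrimidine binding protein LARP1 (0.87), TPT1 (1.05), the synthetase complex scaffold JTV1, now AIMP2 (1.58), the helicase DDX3X (2.56) and the tRNA-modifying YRDC (1.53). In TOR signalling, which sets EIF4EBP1 activity, 1 of 9 measured genes was called higher, the TOR inhibitor DDIT4, and 0 lower, with a median of -0.06. DDIT4 had 1038, 3968 and 1912 units in endoderm, against 381, 736 and 486 in hESCs (1.95 ± 0.26, SE, limma adjusted p = 0.00615).

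The G1/S libraries were compared with the mean of G1 and S over both types. No gene of the set passed, nor did any region of the table (0.00% in each direction), and edgeR called 0 genes of the set. At an unadjusted p under 0.05, 5 genes were higher at G1/S and 15 lower, where 6.50% and 8.92% of all regions were. DESeq2 called 0 higher and 5 lower. The median of the set was -0.39 against 0.06 over all regions, and 57 of 89 differences were negative. In both types, 24 genes had G1/S below G1 and S (18.5% of all regions did) and 15 had it above (24.5% of all regions).

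Base composition moved with this difference. GC content was rank correlated with a library's deviation from the region mean across 9873 named regions. The correlation was 0.24 in endoderm G1/S and 0.43 in hESC G1/S. It was -0.40 in endoderm G1, -0.16 in endoderm S, -0.005 in hESC G1 and -0.11 in hESC S. The correlation thus also differed between types within a phase. The genes of the set had a median GC content of 42.2% in the last 500 transcript bases, against 46.2% for named regions. After correction for GC in each library the median of the set was -0.04, against 0.08 over the 9873 regions. The correction removes any shift that follows GC content, and the cause of the shift was not tested. For endoderm against hESC the corrected median of the set was 0.21, against 0.07 over those regions. That of the cytosolic synthetases was 0.50, where it was 0.62 without correction.

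**Figure D4:**
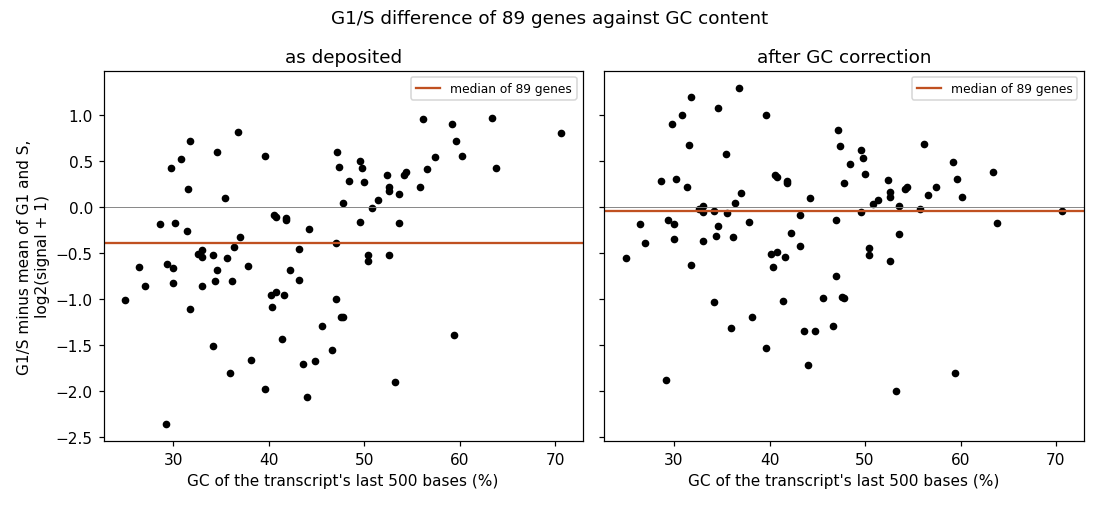
Difference of G1/S from the mean of G1 and S on the log2(signal + 1) scale (y axis) against the GC content of the transcript's last 500 bases in percent (x axis) for the 89 genes, as deposited (left) and after correction for GC in each library (right). The orange line is the median, -0.39 on the left and -0.04 on the right.

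PABPC1 had the lowest difference, with 1873, 279 and 1224 units in endoderm and 1813, 186 and 454 in hESCs. G1/S was the lowest library of each type. The difference was -2.36 ± 0.33 (SE, limma adjusted p = 0.314), or -1.88 after GC correction, and it passed in 4 of 6 fits made with a library removed. AARS followed the same course, with -1.89 ± 0.37 and -1.99 after correction. EIF2AK1 (-2.06 ± 0.60), GSPT1 (-1.97 ± 0.47) and the eIF2 GTPase activator EIF5 (-1.80 ± 0.66) complete the 5 lowest, of which EIF5 had 10.4, 3.33 and 15.4 units in endoderm and 20.4, 3.12 and 10.6 in hESCs. DESeq2 called PABPC1, AARS, EIF2AK1, GARS and EIF4E2 lower.

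At the other end EIF3G had 916, 3054 and 2008 units in endoderm and 1862, 2292 and 977 in hESCs, with G1/S highest in each type. Its difference was 0.97 ± 0.40 (SE, limma adjusted p = 0.318) and 0.39 after GC correction. EIF4G1 was at 0.90 ± 0.35, EIF4E3 at 0.82 ± 0.59, EEF1A2 at 0.81 ± 0.28 and EIF5A at 0.96 ± 0.65. EIF5A owed its place to hESCs, where the difference was 2.52, against -0.60 in endoderm. After correction EIF4G1 was at 0.50 and EEF1A2 at -0.04, and EIF4E3 at 1.30.

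**Figure D5:**
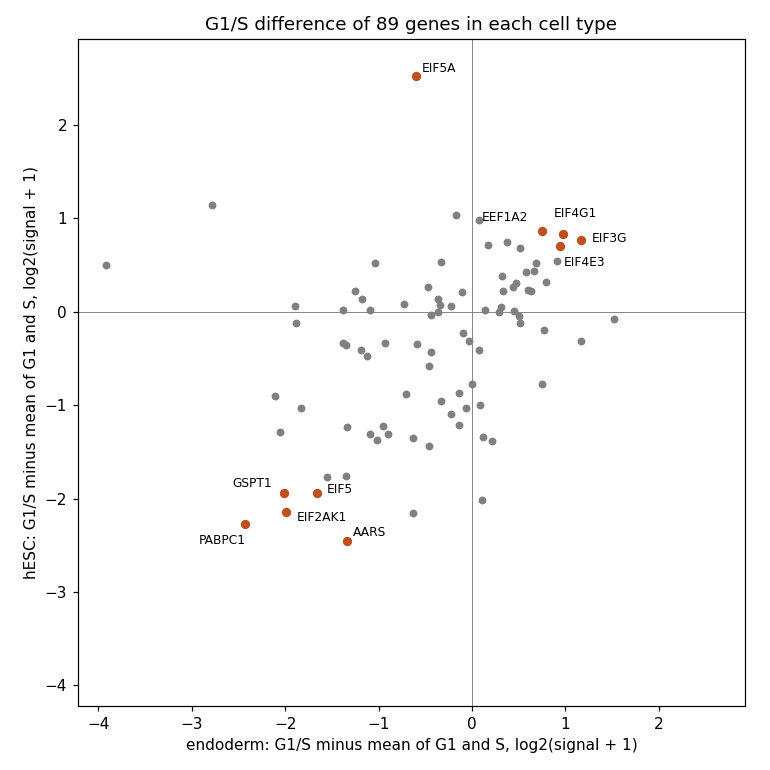
Difference of G1/S from the mean of G1 and S on the log2(signal + 1) scale within endoderm (x axis) and within hESCs (y axis) for the 89 genes, 1 library per type and phase, with the 5 lowest and 5 highest genes over both types in orange and named. PABPC1 lies at -2.43 in endoderm and -2.28 in hESCs, and EIF5A at -0.60 in endoderm and 2.52 in hESCs.

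S was compared with G1 in the same way. With limma 0 genes of the set passed in either direction (0.00% of all regions each way), edgeR and DESeq2 called 0, and 1 gene was higher and 1 lower at an unadjusted p under 0.05 (2.05% and 1.34% of all regions). These were EIF4A1, at 0.62 ± 0.23 (SE), and PABPC1, at -1.30 ± 0.38 (limma adjusted p = 0.982 for both). The median was 0.01 in the set and 0.00 over all regions. MARS2 (2.06), EIF5A (1.72) and EIF3F (0.97) were the 3 highest, and PABPC1 (-1.30), TARS2 (-1.30) and EIF4E1B (-1.14) the 3 lowest. MARS2 had 29, 4.99 and 15.4 units in endoderm and 0, 4.16 and 30.7 in hESCs, so that its value rests on 0 reads in hESC G1. Leaving out endoderm G1 gives 5 lower calls in the set.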

How the data were processed

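Per the labels' protocols, poly(A) RNA was sheared and libraries of 3' ends were made with an oligo dT primer and 15 cycles of PCR. Tools listed without a role, per the submitters' processing notes, are Bowtie 0.12.7, CASAVA 1.5 and DESeq 1.5.24, and the builds are hg18 and NCBI36. The authors deposited 1 table of linear signal values for 14686 regions in 6 libraries. At a tolerance of 1e-06, 100% of the deposited signal values were whole reads divided by 1 constant per library, so whole reads were recovered. A count of 0 allows a signal of up to 1.77 to 5.13 (3 reads), and this floor covers counting error only. No column was left unused (0).

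Regions with log2(signal + 1) of at least 1 in at least 3 of 6 libraries were kept (14657, with 29 removed) and fitted with limma 3.58.1 in R 4.3.3 (intensity trend, terms for cell type and phase, 2 residual degrees of freedom, prior 5.46). P-values were adjusted by Benjamini-Hochberg over all regions. The phase in the labels pairs the libraries across types, and the phase term is the block. edgeR 4.0.16 and DESeq2 1.42.0 on the recovered reads, other scalings, filters, GC correction (loess, span 0.5) and leaving out libraries were alternatives. Scripts were tested on simulated data.

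Named genes are those past the threshold, the 2 of highest signal in each role, listed paralog pairs, and the 5 (G1/S) or 3 (S against G1) most extreme each way. Any other gene given with a value, where the text does not say why, was chosen after its values were seen. The genes, lists and tests were chosen with earlier results of these data known. Symbols were matched to RefSeq for all 89 genes, pseudogenes were counted by name in GENCODE, and GC content was at hand for all 89 genes and 95.3% of named regions. Gene models of the deposited build were not used here, so exons and untranslated regions are not stated.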

Additional observations from a re-analysis of the deposited data

Results flagged for a closer look

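Between S and G1, 53 of the 89 genes moved in opposite directions in endoderm and hESCs, and 5 did so by at least 1 on the log2 scale in each type. These are 59.6% and 5.62% of the genes, against 52.3% and 4.61% of all 14657 regions, shares near the background. There is 1 library per type and phase, so the difference between types was not tested for any of them.

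EIF2AK1, the haem-regulated eIF2 kinase, was lower in S than in G1 in endoderm (-1.14) and higher in hESCs (1.79), with 53.9, 8.32 and 23.96 units in endoderm and 60.5, 24.99 and 212 in hESCs (G1, G1/S, S). EIF3E, a subunit of eIF3, had the same pattern at -1.004 in endoderm and 1.08 in hESCs.

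The other 3 were higher in S in endoderm and lower in hESCs. EIF3J, a loosely bound eIF3 subunit, was at 1.52 in endoderm and -2.31 in hESCs, with 279, 406 and 803 units in endoderm and 513, 107 and 103 in hESCs. EIF2C2, an Argonaute, was at 1.55 in endoderm and -1.74 in hESCs. GSPT2, a release factor, was at 1.48 in endoderm and -1.04 in hESCs, on 16.6, 13.3 and 47.9 units in endoderm and 8.32, 8.33 and 3.54 in hESCs.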

How the results depend on the processing

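Of 125 recomputed values for the 6 called genes, 90 kept direction and call, 35 kept direction only and 0 reversed. These values are not independent. Changing the filter, the intensity trend or the phase term leaves the difference itself as it was. Leaving out 1 library of a phase gives the same difference as leaving out both. Direction was therefore fixed in part by the design. Genes called higher in endoderm numbered 5, and 1 without the intensity trend, 12 with GC correction, 13 with DESeq2, 2 without both G1/S libraries, 3 without both S and 16 without both G1, and 2 to 16 with 1 library left out. Genes called lower numbered 1, and 2 with a pseudocount of 4, without the trend, with GC correction or without both G1 libraries, 0 with the stricter filter (5881 regions tested) or without both G1/S, 3 with DESeq2, and 0 to 2 with 1 library left out. Cytosolic synthetases called higher numbered 4, and 0 without the trend or without both G1/S libraries, 7 with GC correction, 1 without both S, and 0 to 6 with 1 library left out. Stress response genes called higher numbered 14, and 8 without the trend, 2 without both G1/S and 2 to 16 with 1 library left out. For G1/S, 0 were called, with 5 lower in DESeq2. Leaving out 1 library gave 0 to 6 higher (6 without hESC G1) and 0 to 8 lower (6 without hESC G1, 8 without endoderm G1). For S against G1 lower, it gave 0 to 5, and no setting gave a higher call. The cause was not tested. Leaving out both S or both G1 libraries, and all settings for the 2 lists, were added after the data were seen.

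With no replicate block, that is without the phase term, 4 genes were called higher and 1 lower in endoderm, 2 of them cytosolic synthetases. GARS (adjusted p = 0.137 in limma) and YARS (0.0927) lose their calls there. A type and phase with 1 library has no spread of its own, and low counts limit genes such as EIF4E1B and EIF3F.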

Other observations

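A further motif, the E-box CACGTG read by MYC and related factors, is its own reverse complement and was searched in the same RefSeq windows. It lay in 12 of 70 genes with a window (17.1%), against 8.77% of the 27305 genes in the promoter table, among them 3 of 11 genes of eIF4F and cap binding, 3 of 9 mitochondrial synthetases and 1 of 14 cytosolic synthetases. EIF4E and EIF4G1 each hold 2 matches in 1 window.

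Weaker regions of 3 genes are given here as values, none of them past the threshold, and the difference between regions of a gene was not tested. The region of IARS at chr9:94058574-94058693 (-), 35730 bases away from the strongest IARS region, had 69.7, 25.0 and 54.8 units in endoderm G1, G1/S and S, against 21.2, 29.2 and 20.1 in hESCs. It made up 76.5%, 23.1% and 59.3% of the signal of both in endoderm and 22.0%, 37.3% and 36.2% in hESCs, and was not called (0.95 ± 0.48 SE, limma adjusted p = 0.201). A region of EIF4E2 18375 bases from its strongest one was at 2.59 (limma adjusted p = 0.0560). The weak region of GSPT1 had 0, 0 and 1.71 units in endoderm, against 24.2, 0 and 23.6 in hESCs (limma adjusted p = 0.177).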
